A study of Caenorhabditis elegans with 2 samples.

Results

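MicroRNA (miRNA) gene loci were examined for the presence of Y67H2A.10, a C. elegans protein with C2H2-type zinc fingers, by chromatin immunoprecipitation with sequencing (ChIP-seq). The loci are all 261 genes of biotype miRNA among 46890 genes on the nuclear chromosomes of the Ensembl annotation of WBcel235 (the assembly also named ce11). Each was taken as the gene body with 500 bp upstream and 200 bp downstream, on the gene's own strand. Members were thus taken by annotation and position, not by signal, although this set of genes was chosen with earlier results of these data known. Strain RW12295 carries st12295, a CRISPR insertion on chromosome IV that adds TY1, EGFP and 3xFLAG tags to Y67H2A.10 itself, and the precipitation used an antibody against GFP. Whole young adults aged 63 hours, grown from starved L1 larvae, gave 2 biological replicates. They form a single group, and there is no second genotype, stage or treatment. Both replicates come from 1 insertion line and from whole animals, so all tissues and the germ line are mixed, and untagged animals were not analysed here.

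A miRNA is cut from a hairpin in a longer primary transcript, first in the nucleus by Drosha with its partner Pasha and then in the cytoplasm by Dicer. The mature strand is loaded into an Argonaute protein and pairs with target mRNAs mainly through its seed, bases 2 to 8, so miRNAs that share a seed form a family with overlapping targets. The worm genes lin-4 and let-7, which time larval development, were the founding members of the class. Many worm miRNA genes lie in clusters that are transcribed together or within introns of coding genes, and the start site of the primary transcript is often not annotated. Distances below are therefore given from the annotated 5′ end of the miRNA gene, which is not a known start of transcription. That end is near the hairpin where the annotated gene is short, with a median of 95 bp, but 3 genes, let-7 among them with 1732 bp, are annotated over more than 200 bp.

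The mir-51 family is broadly expressed and needed for embryonic development. It is shown in full because 5 of its 6 genes had a ChIP-seq summit at an irreproducible discovery rate (IDR) of 0.05 or less. Over all 261 miRNA loci the share was 6.51%. The IDR estimates, for a peak and all those ranked higher, the fraction that would fail to recur in the other replicate. The IDR values below come from the comparison of the 2 replicates, unless a replicate's own list is named. The mature sequences follow, 5′ to 3′, read from the RefSeq genome and annotation of WBcel235 with the seed in capitals.
mir-51: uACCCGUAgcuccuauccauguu
mir-52: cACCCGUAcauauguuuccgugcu
mir-53: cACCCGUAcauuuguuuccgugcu
mir-54: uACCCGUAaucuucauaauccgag
mir-55: uACCCGUAuaaguuucugcugag
mir-56: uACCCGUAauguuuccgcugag
All 6 carry 1 seed, and no other mature miRNA of the RefSeq annotation has it. The mir-35 family, which acts in the embryo and is supplied maternally, shares another seed among 8 mature miRNAs, of which the first 3 genes of the mir-35 cluster are shown because 1 summit lay among them.
mir-35: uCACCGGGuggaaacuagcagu
mir-36: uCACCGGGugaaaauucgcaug
mir-37: uCACCGGGugaacacuugcagu
The mature strand of mir-80, a relative of the fly miRNA bantam, and of mir-229 are given because each had a summit upstream of its hairpin; their seeds are shared by 6 and 5 mature miRNAs.
mir-80: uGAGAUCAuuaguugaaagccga
mir-229: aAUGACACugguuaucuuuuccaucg

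The DNA under the summits of mir-52 and mir-80 is shown whole because both records hold the letters TATAAAA in the direction of the miRNA gene. It is from RefSeq WBcel235, on the strand of the miRNA, with that word in capitals and, for mir-52, the part of the hairpin gene inside the region also in capitals.
mir-52, IV:14033761-14034056, plus strand: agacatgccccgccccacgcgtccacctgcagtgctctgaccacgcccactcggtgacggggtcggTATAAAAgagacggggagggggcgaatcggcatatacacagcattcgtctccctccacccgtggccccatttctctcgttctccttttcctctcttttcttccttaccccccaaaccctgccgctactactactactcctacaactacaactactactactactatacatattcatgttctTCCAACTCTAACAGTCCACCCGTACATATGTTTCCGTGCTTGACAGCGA
mir-80, III:8865453-8865748, minus strand: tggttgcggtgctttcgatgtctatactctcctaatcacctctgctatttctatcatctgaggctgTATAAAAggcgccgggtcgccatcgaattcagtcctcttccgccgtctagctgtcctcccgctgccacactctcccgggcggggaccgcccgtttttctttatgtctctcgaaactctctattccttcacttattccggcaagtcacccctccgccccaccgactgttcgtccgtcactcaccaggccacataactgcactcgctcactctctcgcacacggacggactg
In the mir-52 region the word began 181 bp upstream of the annotated miRNA 5′ end and 82 bp upstream of the summit. In the mir-80 region it began 315 bp upstream of the miRNA 5′ end and 81 bp upstream of the summit. The region beside mir-5549 held it as well, 125 bp upstream of the miRNA and 78 bp upstream of the summit. That summit also lay 121 bp from the 5′ end of rfc-4. The position of the word in other records is not given here, so nothing is read from these 3 distances. The word was chosen after these sequences had been read. Searched on both strands of the whole record, it was found in 3 of the 10 best records with an IDR of 0.05 or less at miRNA loci, and in 2 of the 5 that are in the conservative list. The same word was in 129 of all 1159 ranked records with an IDR of 0.05 or less (11.1%) and in 72 of all 666 conservative regions (10.8%). Over all 22544 ranked records it was in 2962 (13.1%). A match describes the letters only.

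The 101 bases centred on the summits of mir-54, mir-229 and mir-51 are given on the miRNA strand for comparison, with the word ACGCGC in capitals where it occurs.
mir-54 and mir-55, X:13145270-13145370, minus strand: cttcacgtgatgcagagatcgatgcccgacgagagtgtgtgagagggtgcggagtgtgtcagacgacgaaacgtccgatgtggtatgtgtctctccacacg
mir-229, III:2172217-2172317, plus strand: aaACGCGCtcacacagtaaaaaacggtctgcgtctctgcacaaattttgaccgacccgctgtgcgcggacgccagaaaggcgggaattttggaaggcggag
mir-51, IV:11026157-11026257, minus strand: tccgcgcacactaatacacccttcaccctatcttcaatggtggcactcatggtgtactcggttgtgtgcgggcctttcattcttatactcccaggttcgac
This word was the leading short sequence of earlier work on the same regions, searched on both strands. Within 50 bp of the summit it was in 1 of the 5 conservative regions at miRNA loci, that of mir-229, where it began 48 bp upstream of the summit, and in 115 of all 666 conservative regions (17.3%). The mir-51 record held it 76 bp upstream of the summit, outside the stretch shown. Over whole records it was in 2 of the 10 best records with an IDR of 0.05 or less at miRNA loci. It was in 230 of all 1159 ranked records at that limit (19.8%). Over whole conservative regions it was in 1 of 5 at miRNA loci and in 174 of all 666 (26.1%). The words ACGCGC and TATAAAA can overlap by at most 1 letter. GC content within 50 bp of the summit averaged 50.5% ± 6.53 over the 5 regions at miRNA loci (SD, n = 5 regions) and 49.0% ± 8.04 over all 666 conservative regions.

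The authors' conservative list held 709 records at an IDR of 0.01 or less, which were merged to 666 regions, and their ranked list of the same comparison held 22544 candidate records. Signal is the value reported by the peak caller, on a scale that the sources used here do not give. Ranks and percentiles are therefore the safer guide. In the lists of the comparison, signal is that of the pooled reads of both replicates. The IDR, not the signal, sets the replicates against each other. No read counts are in the lists, and sequencing depth is unknown. The replicates' own ranked lists held 24546 records for replicate 1 and 31534 for replicate 2, and their thresholded lists 325 and 414. Each replicate's lists have an IDR of their own, apart from that of the comparison. At the mir-54 region it was 0.701 in replicate 1 and 4.92e-04 in replicate 2, against 0.00167 in the comparison. Absence from a replicate's thresholded list does not by itself mean that a record failed to recur in the other replicate.

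In the conservative list 6 miRNA loci had a summit, in 5 distinct regions: mir-5549, mir-54 with mir-55, mir-229, mir-4932 and mir-52. That is 2.30% of 261 loci (95% Wilson interval 1.06 to 4.92, which covers only the number of loci). For a like window around every gene, from 500 bp upstream to 300 bp downstream of the 5′ end, the share was 1.66% of all 46890 genes and 2.44% of the 31527 genes that are not piRNA genes. The piRNA genes are tiny, very numerous and nearly free of summits, which lowers the first of these figures; they were set apart after the shares by class had been seen. Protein-coding genes stood at 2.23%, and tRNA, snoRNA and snRNA genes at 11.4%, 10.4% and 11.6%. From the thresholded list of replicate 1 alone the count was 1 locus (mir-4932), and from that of replicate 2 alone it was 6. The share of all genes in these shorter lists is not given here, so those counts are not set against a background. In the conservative list miRNA loci as a class were near the background, below tRNA, snoRNA and snRNA genes and above piRNA genes.

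At an IDR of 0.05 or less 17 miRNA loci had a summit in the ranked list, 6.51% of the loci (95% Wilson interval 4.11 to 10.2), against 2.34% of all genes and 3.41% of all but piRNA genes. The best records of these 17 loci were only 10 in number, since 6 of the loci belong to the mir-35 cluster and lie over a single one, so the interval overstates the number of independent loci. One further, weaker record at this limit lay in the window of mir-51. Over all IDR values, 63 loci (24.1%) had a ranked summit in the same fixed window, against 17.4% of all genes and 21.9% of all but piRNA genes. The window of the rule, which includes the gene body, found 64 loci and 53 distinct records. In both replicates' own ranked lists a summit was present at 35 loci (13.4%), against 10.8% of all genes and 14.1% of all but piRNA genes.

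**Figure D1:**
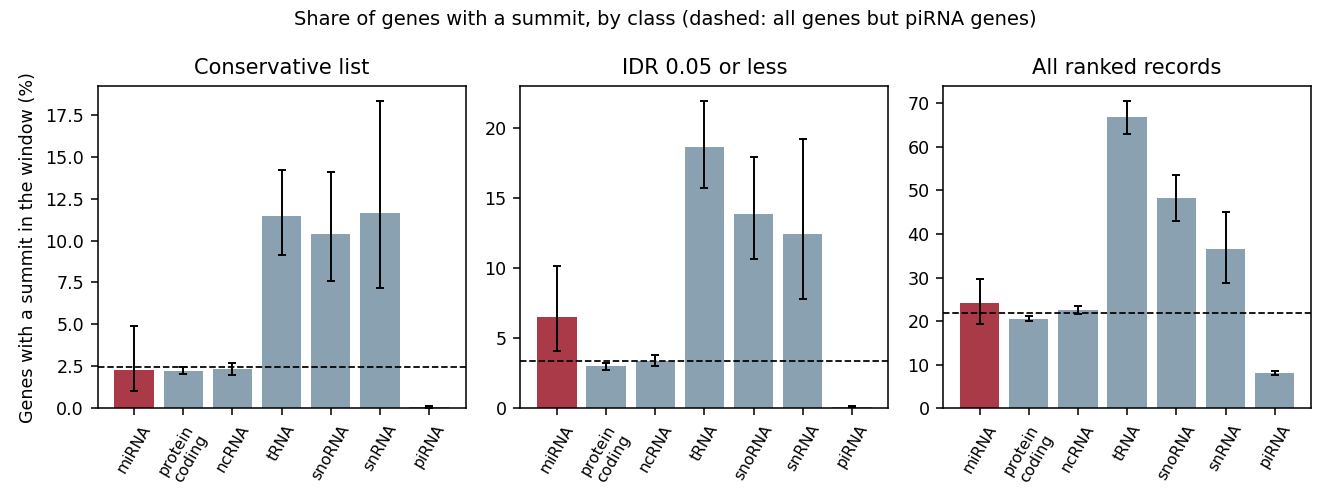
Share of genes, in percent, with a summit between 500 bp upstream and 300 bp downstream of the 5′ end, for the conservative list, ranked records with an IDR of 0.05 or less, and all ranked records. Error bars are 95% Wilson intervals over genes, and the dashed line is the share of all genes but piRNA genes; miRNA genes stand at 2.30%, 6.51% and 24.1%, and tRNA genes are far above them in all panels.

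A coding 5′ end lay within 500 bp of the summit at 2 of the 6 conservative loci, mir-5549 and mir-4932, and at none of mir-54, mir-55, mir-229 and mir-52. The count of 4 without one was 0 in the thresholded list of replicate 1 alone, and 1 (mir-229) where 5′ ends of non-coding genes were counted as well. The loci with and without a coding 5′ end were kept apart, since a summit between a miRNA and a coding promoter cannot be assigned to either one. Over the 64 loci with a ranked summit the split was 19 with a coding 5′ end near and 45 without. Over the 17 loci at an IDR of 0.05 or less it was 3 and 14. Those 14 count the mir-35 record at 6 loci, and mir-54 with mir-55 and mir-56 with mir-55b each share a record. The share of all regions or records with a coding 5′ end near is not given here, so nothing is read from these splits.

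Among the regions with no coding 5′ end near, those upstream of the mir-54 cluster and of mir-229 had close signals in the comparison, 122 and 121, with mir-229 the higher in each replicate's own list. mir-54, mir-55 and mir-56 (X:13144996-13145094, X:13144827-13144924 and X:13144691-13144787, minus strand) are neighbouring hairpins inside F09A5.3, on the opposite strand to that gene. The region, X:13145172-13145467, had its summit in an intron of F09A5.3, 226 bp upstream of mir-54 and 396 bp upstream of mir-55, and 3719 bp from the nearest coding 5′ end. The 5′ end of F09A5.11, an annotated non-coding RNA, lay 49 bp from it. Its signal was 40.2 in replicate 1 (percentile 95.9 of that replicate's ranked records) and 68.7 in replicate 2 (percentile 99.3). The lists of the comparison gave it a signal of 122 from pooled reads, an IDR of 0.00167 and place 236 among the 666 conservative regions. It was in the thresholded list of replicate 2 and not in that of replicate 1.

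A second record stood on the other side of the same cluster, at X:13144352-13144647. It had a signal of 70.9 and an IDR of 0.0140, and its summit lay 287 bp downstream of the annotated 5′ end of mir-56 and 330 bp upstream of mir-55b, a miRNA gene annotated on the strand opposite mir-55. Replicate 2 had a record there with a signal of 41.1 (percentile 97.4), and replicate 1 had none overlapping it in its own ranked list. The 3 hairpins of the cluster therefore lay between the pair of records.

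The gene mir-52 (IV:14034008-14034107, plus strand) had the region IV:14033761-14034056, which covers the start of the hairpin, with the summit 99 bp upstream. Its signal was 38.5 in replicate 1 (percentile 95.1) and 56.8 in replicate 2 (percentile 99.0), and 95.9 in the comparison, with an IDR of 0.00365 and place 429 of 666. The nearest coding 5′ end was 9871 bp away, and that of the non-coding RNA Y37A1B.333 was 43 bp away. The summit was in an exon of Y37A1B.330, a non-coding RNA annotated at IV:14033557-14034004 on the same strand as mir-52 and ending just before it. A second ranked record, between 643 and 938 bp upstream of mir-52 and so outside the window, had a signal of 77.4 and an IDR of 0.0192.

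At mir-51 (IV:11026013-11026112, minus strand) the record IV:11026059-11026354 had its summit 95 bp upstream, with a signal of 33.2 in replicate 1 (percentile 90.8) and 41.2 in replicate 2 (percentile 97.4). The comparison gave a signal of 80.0 and an IDR of 0.0229, outside the conservative list. A weaker overlapping record upstream had a signal of 19.2 and an IDR of 0.0227. The summit was in an exon of the non-coding RNA F36H1.17, 12 bp from its 5′ end, and 2978 bp from the nearest coding 5′ end. mir-53, the remaining member (IV:11027593-11027691), lies upstream of mir-51 on the same strand and had no ranked summit in its window, although replicate 2 alone had one with a signal of 32.0 (percentile 93.1). Of the 6 genes of the family, 3 were thus in the conservative list and 5 at an IDR of 0.05 or less, the 5 over 4 distinct records. In both replicates' own ranked lists a summit was present at 4 of the genes. Over all 261 miRNA loci the shares were 2.30%, 6.51% and 13.4%. The family is shown in full because of these counts, so nothing is read from them.

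**Figure D2:**
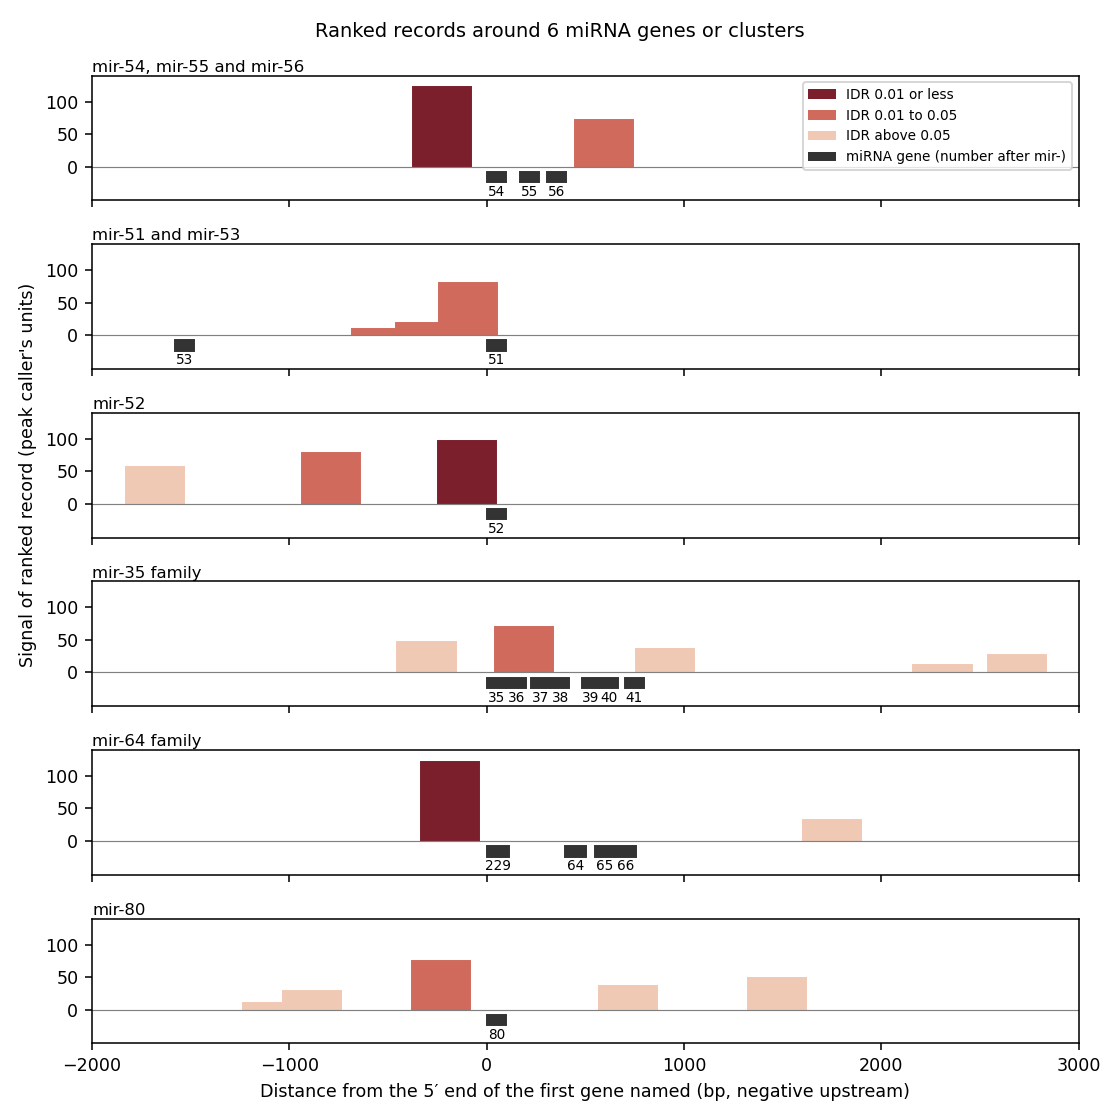
Ranked records around 6 miRNA genes or clusters, by distance in bp from the 5′ end of the first gene named (negative upstream); bar height is the signal of the comparison in the peak caller's units, colour the IDR, and black boxes the miRNA genes, each marked by its number. The records with an IDR of 0.01 or less stand upstream of mir-54, of mir-52 and of mir-229, the mir-35 record lies over the hairpins, and mir-42 and mir-63, members of their families elsewhere in the genome, are not drawn.

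The summit of mir-229 lay upstream of a whole cluster of the mir-64 family. mir-229 (III:2172452-2172566, plus strand) is followed on the same strand by mir-64, mir-65 and mir-66, all inside gcn-1, which encodes a homologue of the yeast translational regulator Gcn1, and on its strand. The region III:2172119-2172414 had its summit in an intron of gcn-1, 185 bp upstream of mir-229 and 20322 bp from the nearest coding 5′ end, that of gcn-1 itself. It lay 581, 735 and 841 bp upstream of mir-64, mir-65 and mir-66, beyond their windows. The signal was 49.1 in replicate 1 (percentile 97.9) and 74.99 in replicate 2 (percentile 99.4), and 121 in the comparison, with an IDR of 2.44e-04 and place 240 of 666. It was in the thresholded list of replicate 2 only. mir-63, the fifth member, had no ranked summit.

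mir-80 (III:8865270-8865367, minus strand), of the abundant mir-58 family, had the record III:8865453-8865748 between genes. Its summit was 234 bp upstream of the miRNA and 11527 bp from the nearest coding 5′ end, and the nearest other gene start, of the non-coding K01F9.6, was 333 bp away. The signal was 38.8 in replicate 1 (percentile 95.3) and 35.8 in replicate 2 (percentile 95.7), close to each other, and 74.2 in the comparison, with an IDR of 0.0143. The other 7 genes of the family had no ranked summit. Each of those 7 had a summit in the ranked list of a single replicate. In replicate 1 these were mir-58a, with a signal of 35.6 (percentile 93.3), and mir-58b, with 18.1. In replicate 2 they were mir-81, with 35.3 (percentile 95.4), mir-82, with 23.5, mir-2209a and mir-2209c, with 18.6 each, and mir-2209b, with 13.9.

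A single record, II:11537651-11537946, served mir-35, mir-36, mir-37, mir-38, mir-39 and mir-40, 6 of the 7 hairpins of the mir-35 cluster. The cluster (II:11537608-11538404 from mir-35 to mir-41, plus strand) is inside Y62F5A.9 on the opposite strand. The summit, at II:11537799, was in an intron of that gene and in the mir-36 hairpin gene itself, 191 bp downstream of the 5′ end of mir-35 and 34 bp upstream of mir-37. The 5′ end of the non-coding RNA Y62F5A.14 was 6 bp from it. The signal was 37.2 in replicate 1 (percentile 94.4) and 38.2 in replicate 2 (percentile 96.6), and 69.2 in the comparison, with an IDR of 0.0134. mir-41 had its own record with a signal of 36.0 and an IDR of 0.873, and mir-42, on the same chromosome but outside the cluster, had no ranked summit.

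The pair of conservative loci beside coding promoters were mir-5549 and mir-4932. At mir-5549 (III:6971976-6972085, minus strand) the region III:6971984-6972279 had a signal of 63.2 in replicate 1 (percentile 98.9) and 71.7 in replicate 2 (percentile 99.4), and 136 in the comparison, with an IDR of 7.8e-05 and place 184 of 666. Its summit was 47 bp upstream of the miRNA, 121 bp from the 5′ end of rfc-4, which encodes a subunit of the clamp loader replication factor C, and 420 bp from that of eef-1A.1, which encodes a translation elongation factor. At mir-4932 (I:9512307-9512416, plus strand) the region had a signal of 62.9 in replicate 1 (percentile 98.9) and 48.3 in replicate 2 (percentile 98.4), and 103 in the comparison, with an IDR of 4.19e-04 and place 359. The summit lay 116 bp downstream of the miRNA 5′ end, 29 bp from the 5′ end of klp-16, a kinesin-like motor gene, and 187 bp from that of smn-1, the worm survival motor neuron gene. The record of mir-5595 (II:14399565-14399629, minus strand) had a coding 5′ end near it as well. It lay 206 bp upstream of that miRNA and 217 bp from a 5′ end of nurf-1, a chromatin remodelling gene that also contains the miRNA. Signals there were 32.1 in replicate 1 and 50.8 in replicate 2, and 73.9 in the comparison, with an IDR of 0.0222, and it was in the thresholded list of replicate 2 and in the pooled list.

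None of the 5 conservative regions was in the thresholded lists of both replicates. The regions of mir-5549, mir-54 with mir-55, mir-229 and mir-52 were in that of replicate 2, and that of mir-4932 in that of replicate 1. Of all 666 conservative regions, 212 (31.8%) were in both, 86 (12.9%) in replicate 1 only, 144 (21.6%) in replicate 2 only and 224 (33.6%) in neither. All 5 had a record in the ranked lists of both replicates, at percentile 95.1 or above. With 1 group of 2 replicates no test between groups exists, and 5 regions are too few to set their split against that of the rest. Over the 35 loci with a summit in both replicates' ranked lists, some of which share a record, the signals of the replicates had Spearman's rho 0.777 and Pearson's r of log2 signals 0.747, given as a description.

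**Figure D3:**
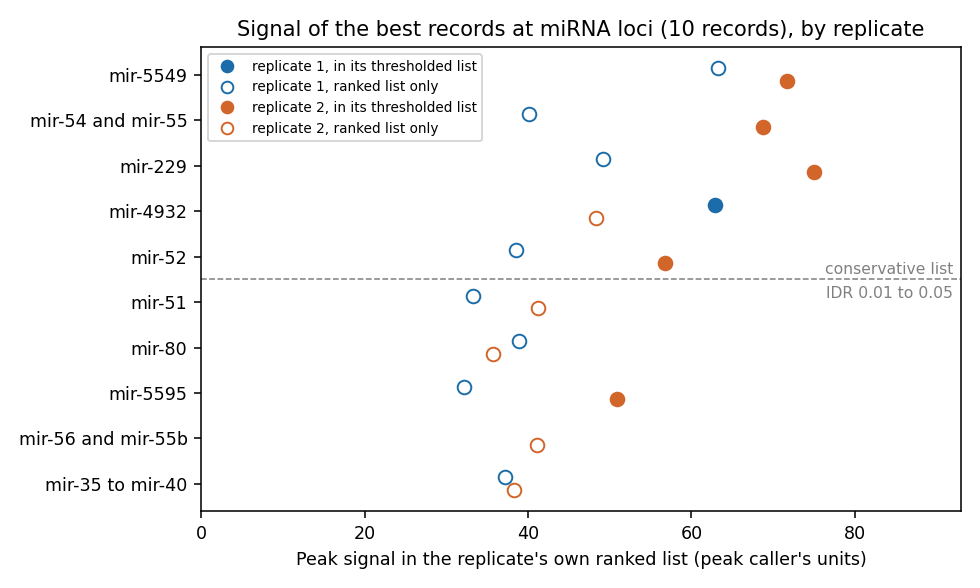
Signal, in the peak caller's units, of the 10 best records at miRNA loci with an IDR of 0.05 or less, in the ranked list of replicate 1 (blue) and replicate 2 (orange); filled points are also in that replicate's thresholded list. Replicate 2 is the higher at mir-5549, mir-54 with mir-55, mir-229 and mir-52, replicate 1 at mir-4932 and mir-80, and no record of replicate 1 is present at mir-56.

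The remaining 47 loci with a ranked summit had an IDR above 0.05, with signals from 7.62 at mir-358 to 66.1 at mir-8186-2 and a median of 40.7. The closest to the 0.05 limit were mir-4930, with an IDR of 0.0686 and a signal of 63.9, and mir-8186-2, with an IDR of 0.116; mir-8186-2 had a coding 5′ end (gmeb-1) 481 bp from its summit. mir-4930 had signals of 40.0 in replicate 1 and 27.7 in replicate 2, and mir-4812, inside piki-1, had 27.1 in replicate 1 and 37.8 in replicate 2, with 59.4 in the comparison and an IDR of 0.167. No record overlapped that of mir-8186-2 in the ranked list of replicate 1, and replicate 2 had 32.1. Over all 64 loci, the 17 at an IDR of 0.05 or less included, the best ranked record overlapped a record of both replicates at 31. It overlapped one of replicate 1 only at 12, of replicate 2 only at 13 and of neither at 8.

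The window searched reaches 500 bp upstream of the miRNA 5′ end, against a median body of 95 bp and 200 bp beyond it. Of the 64 best ranked summits, 45 were upstream of the annotated 5′ end. Their median was 104 bp upstream, with quartiles at 238 bp upstream and 49.2 bp downstream. For the 6 conservative loci the median was 142 bp upstream. With the window from 1000 bp upstream it was 396 bp upstream, over 11 loci. The median thus moved with the window, and no preference for the upstream side is read from it. The best ranked record stood at a median percentile of 72.9 of the signals at miRNA loci and of 66.3 over all genes with a ranked summit in the fixed window. It was at percentile 90 or above at 22 of 64 loci (34.4%), against 22.98% of those genes. The 64 loci hold 53 distinct records, and the mir-35 record alone counts 6 times among the 22. The miRNA loci were taken with the window of the rule and all genes with the fixed window. No difference is read from these figures.

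**Figure D4:**
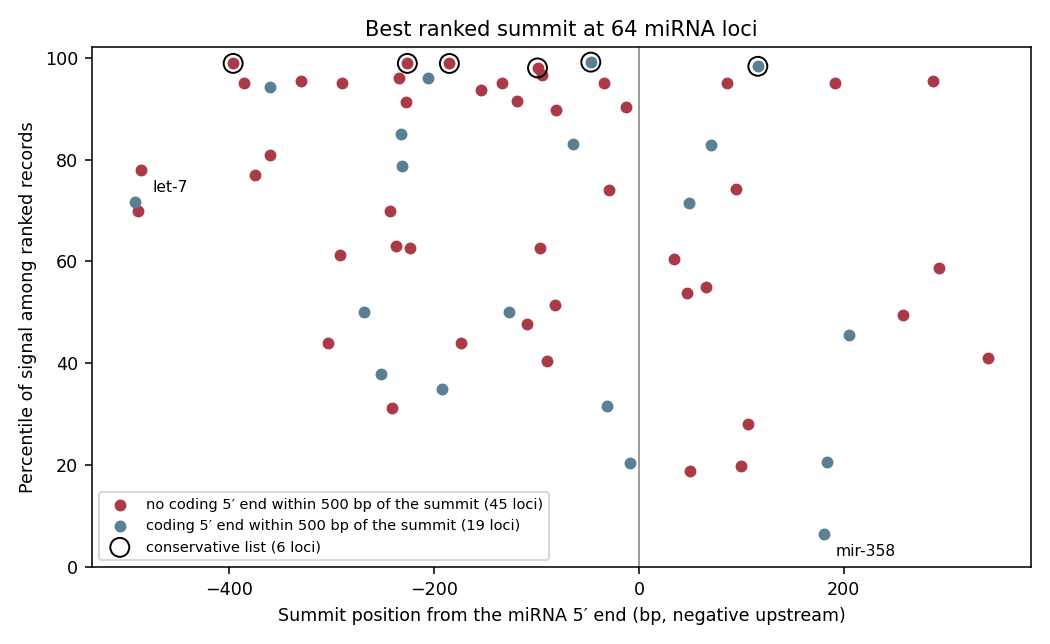
Percentile of the signal among all ranked records against the position of the summit in bp from the miRNA 5′ end (negative upstream), 1 point for each of the 64 loci with a ranked summit. Red points have no coding 5′ end within 500 bp of the summit, blue points have one, and rings mark the 6 loci of the conservative list; let-7 and mir-358, the lowest, are labelled, and loci of 1 cluster share a record.

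By position in the genome, 33 loci are in a coding gene on the opposite strand, and 16 of them had a ranked summit, 10 at an IDR of 0.05 or less and 2 in the conservative list. Of the 76 loci in a coding gene on the same strand, 22 had a ranked summit, 2 at an IDR of 0.05 or less and 1 in the conservative list. Of the 152 outside coding genes the numbers were 26, 5 and 3. The shares with a ranked summit were 48.5%, 28.9% and 17.1%, against 24.5% over all 261 miRNA loci. The first group holds the mir-35 cluster and mir-54 to mir-56, so its count rests on few records. No share for other genes inside coding genes is given here, so nothing is read from these counts.

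In the let-7 family, which times the passage from larva to adult, 1 of 7 genes had a ranked summit: let-7 itself, with a signal of 47.6 and an IDR of 0.731, its summit 486 bp upstream of the long annotated gene. mir-48, mir-84, mir-241, mir-793, mir-794 and mir-795 had none. In the list of replicate 2 alone, mir-795 had one with a signal of 25.7 (percentile 80.8) and mir-84 one with 16.8 (percentile 26.7). lin-4 and mir-237 had none in the ranked list either. lin-4 was in both replicates' own lists at low rank, with signals of 17.2 in replicate 1 (percentile 4.38) and 19.1 in replicate 2 (percentile 45.8). There was none at lsy-6, which sets the left and right identity of a pair of taste neurons, or at mir-1, a muscle miRNA. At lsy-6 replicate 2 alone had one, with a signal of 15.9 (percentile 19.8). mir-124, of sensory neurons, had a ranked summit with a signal of 40.1 and an IDR of 0.680 in the comparison. Over all 261 miRNA loci the share with a ranked summit was 24.5%, and counts in families of this size cannot be told from it.

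In the other families every ranked summit had an IDR above 0.05. The mir-44 family had 1 among 4 genes (mir-61), the mir-2 family 2 among 4 (mir-2 and mir-250), the mir-72 family 1 among 5 (mir-72) and the mir-87 family 1 among 4 (mir-233). The group of mir-238 and mir-239 genes had 2 among 3 (mir-238 and mir-239b), and mir-232 with mir-357 had 1 among 2 (mir-357). None was found at mir-75, mir-79, mir-251, mir-252, mir-46 or mir-47. Among 14 genes listed singly, 6 had a ranked summit: mir-71, mir-86, mir-124, mir-240, mir-786 and mir-90. Of the 78 listed genes, 29 had a ranked summit, 13 of them at an IDR of 0.05 or less, over 21 and 7 distinct records. Of the 183 genes outside the lists, 35 had one and 4 at that limit, over 34 and 4 records. The lists were chosen with earlier results of these data known, so nothing is read from that contrast; mir-61 and mir-250, of different families, share a record, as do mir-56 and the unlisted mir-55b.

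**Figure D5:**
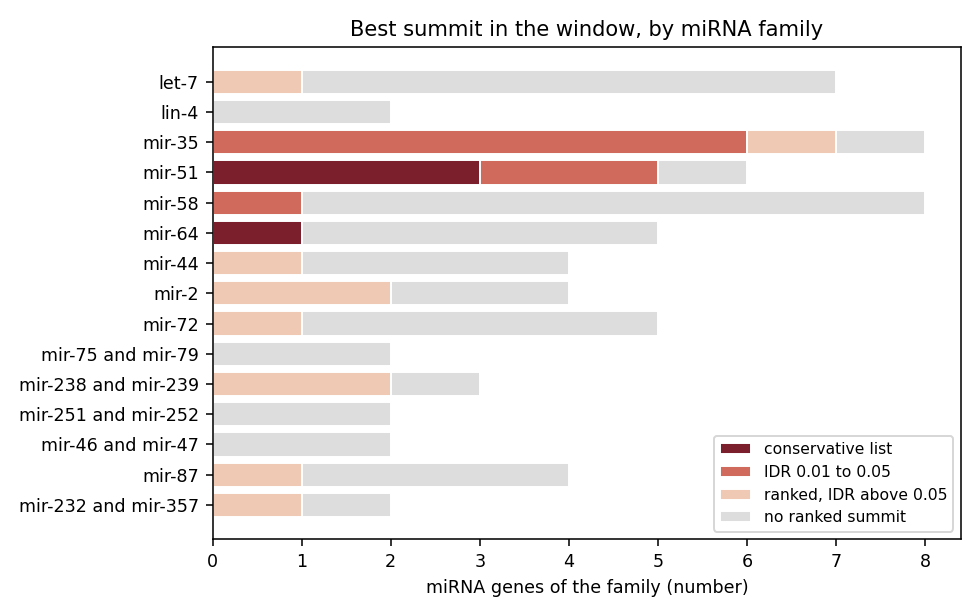
Number of genes in each listed miRNA family by the best summit in the window: in the conservative list, at an IDR of 0.01 to 0.05, ranked with an IDR above 0.05, or none. The mir-51 family has 3 genes in the first class and 2 in the second, the mir-35 family 6 in the second, all over 1 record, and the mir-58 and mir-64 families 1 gene each at an IDR of 0.05 or less.

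The genes of the miRNA pathway itself, searched from 500 bp upstream to 300 bp downstream of every coding 5′ end, gave 0 of 10 with a conservative summit, against 2.35% of all 19973 coding genes searched in the same way. Ranked summits were found at 5 of them, against 23.4% of coding genes, and 10 genes are too few to read a difference from. pash-1 (Pasha) had a signal of 56.8 and an IDR of 0.768, and drsh-1 (Drosha) 52.1 and 0.227. xrn-2, an exonuclease that degrades mature miRNAs, had 53.7 and 0.697. The Argonaute gene alg-2 had 39.0 and 0.540, and ain-2, which encodes a GW182-like partner of Argonaute, had 28.4 and 0.688. No ranked summit was present at dcr-1 (Dicer), alg-1, ain-1, xpo-1 or rde-1.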

How the data were processed

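Peak lists from ChIP-seq of 2 biological replicates were analysed. Per the deposited files, the authors' lists give for each record a signal, a score (a rescaled IDR of at most 1000) and, in the ranked lists, the −log10 of the IDR. No aligner or peak caller is named in the sources used here. The thresholded lists hold records at an IDR of 0.01 or less, tested on the files. The 2 series-level ranked lists also hold 16 columns of replicate positions and values that were left unused, and replicate values come from each replicate's own list.

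Overlapping conservative records were merged, keeping the summit of the highest. A summit was placed in windows built from Ensembl release 115 with pandas 2.3.3 and NumPy 2.4.6 under Python 3.11.15, in code tested on simulated data. Intervals are 95% Wilson intervals from statsmodels 0.14.6. Mature miRNAs were read from RefSeq coordinates, all 261 loci matching a RefSeq name, and 78 of 79 listed family names matched a gene. The members, families and pathway list were chosen with earlier results of these data known. Named genes are those with a conservative summit, with an IDR of 0.05 or less, among the 20 highest ranked signals, or on those lists; a few others are named as exceptions. No test was made, since 1 group holds all samples. Alternatives were other lists, IDR limits, windows, overlap rules and distances to 5′ ends.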

Additional observations from a re-analysis of the deposited data

How the results depend on the processing

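The count of 6 conservative loci and that of 4 without a coding 5′ end near depended mainly on the list and the window. Leaving out replicates gave 1 to 6 and 0 to 4 loci: without replicate 2, from the thresholded list of replicate 1, only mir-4932 remained. At an IDR of 0.05 the counts were 17 and 14, and at 0.001 they were 3 and 1, with mir-229 as the 1 locus left. From 200 bp upstream the count without a coding 5′ end was 2, from 1000 bp upstream the counts were 11 and 8, and from 2000 bp 16 and 12. Counting 5′ ends of non-coding genes too left 1, mir-229. Summits in both replicate lists, 35 in the main window, were at 20 loci from 200 bp upstream and at 55 from 1000 bp. The conservative median position of -142 bp became -396 bp with 1000 bp upstream. In all, 15 alternative values moved past the limit for a count or the spread and 23 did not. Leaving out replicates gave 73 to 80 ranked loci. Of the 80 from replicate 2 alone, 48 were among the 64 main loci, and of the 73 from replicate 1 alone, 45. The membership therefore changed as well as the total. Depth is not in the lists, so absence from them is not absence of binding. The block of replicate numbers does not apply: No paired analysis was possible because there is 1 group and no test.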

Other observations

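Further miRNA genes had a conservative region beyond the 500 bp window. mir-34, whose family acts in stress responses, had a summit 1857 bp upstream, in the region X:2971557-2971852, with a signal of 64.4 in replicate 1 and 80.2 in replicate 2, and 145 in the comparison, with an IDR of 3.89e-05. mir-72 had one 1613 bp upstream, at II:2451077-2451372, with signals of 90.4 in replicate 1 and 67.6 in replicate 2, and 161 in the comparison, with an IDR of 2.21e-05. Both regions were in the thresholded lists of both replicates, and the nearest coding 5′ ends were 4743 bp and 3468 bp away. mir-71, which extends lifespan, had one 1354 bp upstream inside ppfr-1, with signals of 49.3 in replicate 1 and 62.2 in replicate 2, and 106 in the comparison; it was in neither replicate's thresholded list. The summit 1108 bp upstream of mir-235 lay 49 bp from the 5′ end of a tRNA gene, and those of mir-354 and mir-2216, 834 bp and 1775 bp upstream, lay within 500 bp of the coding 5′ ends of ekl-4 and gmps-1.

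With the window from 2000 bp upstream to 300 bp downstream of the 5′ end, 16 of 261 miRNA genes (6.13%) held a conservative summit. The share was 2.64% of all 46890 genes and 3.70% of the 31527 genes that are not piRNA genes. The 16 loci include mir-64, mir-65 and mir-66, which shared the summit of mir-229, and mir-56, which shared that of mir-54. The regions are thus fewer than the loci, and no difference is read from these shares. Which transcript these distal regions belong to was not tested.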
